A study of Homo sapiens with 6 samples.

Results

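The 627 regions described here are places where MYT1L occupancy was called away from protein-coding genes but at an end of a noncoding gene or pseudogene. Peaks of the 4 MYT1L libraries that overlapped by at least 1 bp were merged into 49028 regions, of which 12299 had a peak in at least 3 libraries (called reproducible). Of these, 11091 overlapped no peak of the IgG libraries, and 2364 of them lay outside protein-coding gene bodies and over 1000 bp from the ends of those genes (called intergenic). The 627 members, 26.5% of the intergenic regions (95% Wilson interval 24.8 to 28.3, counting error only), lay within 1000 bp of an end of a gene of any other type in the RefSeq table, and 1737 intergenic regions did not. The members were chosen by MYT1L peak calls, absence of IgG peaks and location, so these values are given as description and carry no test.

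The libraries came from CUT&RUN, in which an antibody directs a nuclease to a chromatin protein and the released DNA is sequenced, in H1, an established line of human embryonic stem cells, on day 30. The series' design calls the cells cortical interneurons made from these stem cells, while each sample's cell type label reads embryonic stem cells. MYT1L was targeted in 4 libraries, and 2 libraries with IgG served as the control for background, while the titles mark all 6 as WT. Peak lists hold no expression values, so the cell type could not be checked against marker genes, and nothing in the labels says whether the replicates were separate cultures. The MYT1L lists held 27926, 12310, 18966 and 30086 peaks and the IgG lists 976 and 998, and read depth is not given in the sources used here.

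MYT1L is a zinc-finger transcription factor of neurons that acts largely as a repressor, and proteins of its family bind sequences with an AAGTT core. Noncoding genes differ in their promoters. Long noncoding RNAs (lncRNAs) and most microRNA hosts are transcribed by RNA polymerase II, as are most spliceosomal small nuclear RNAs, whereas tRNA, 5S ribosomal RNA and U6 genes use RNA polymerase III. Pseudogenes are copies of other genes, and those annotated as transcribed may carry a promoter copied along with the gene.

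Promoters of 5 lncRNAs with a member are shown because they carry the pattern described below, a high density of CpG at the start, and 1 lncRNA without any region is shown for contrast. Each is the RefSeq window from 250 bases before to 50 bases after the start (GRCh38.p14), 5′ to 3′ on the gene's strand, with every CpG dinucleotide in capitals. SNHG33 (chr3:183447358-183447657, plus strand) held 19 CpG, LINC00667 (chr18:5237850-5238149, plus strand) 38, NORAD (chr20:36050911-36051210, minus strand) 23 and DANCR (chr4:52712144-52712443, plus strand) 27. LOC124904991 (chr21:7614056-7614355, plus strand) held 14. MIR122HG (chr18:58446013-58446312, plus strand), the host of a liver microRNA, had 6 and no region at either end.
SNHG33: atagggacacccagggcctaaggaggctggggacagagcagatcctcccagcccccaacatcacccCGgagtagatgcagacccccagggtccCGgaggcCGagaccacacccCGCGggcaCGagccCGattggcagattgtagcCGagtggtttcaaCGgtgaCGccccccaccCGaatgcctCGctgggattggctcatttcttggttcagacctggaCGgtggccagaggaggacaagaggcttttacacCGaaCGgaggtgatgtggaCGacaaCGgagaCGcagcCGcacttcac
LINC00667: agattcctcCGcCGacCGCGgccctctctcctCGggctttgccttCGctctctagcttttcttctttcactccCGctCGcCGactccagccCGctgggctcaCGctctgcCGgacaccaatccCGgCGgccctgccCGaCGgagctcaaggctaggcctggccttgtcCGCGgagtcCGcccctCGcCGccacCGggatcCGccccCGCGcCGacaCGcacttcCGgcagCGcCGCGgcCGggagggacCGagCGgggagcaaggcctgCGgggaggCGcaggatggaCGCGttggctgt
NORAD: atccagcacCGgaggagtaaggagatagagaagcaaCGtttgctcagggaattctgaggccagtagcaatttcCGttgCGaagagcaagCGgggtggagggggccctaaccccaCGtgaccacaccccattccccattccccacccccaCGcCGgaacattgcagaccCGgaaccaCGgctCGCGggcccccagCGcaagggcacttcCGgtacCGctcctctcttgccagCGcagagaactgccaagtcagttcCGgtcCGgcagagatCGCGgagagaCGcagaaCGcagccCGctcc
DANCR: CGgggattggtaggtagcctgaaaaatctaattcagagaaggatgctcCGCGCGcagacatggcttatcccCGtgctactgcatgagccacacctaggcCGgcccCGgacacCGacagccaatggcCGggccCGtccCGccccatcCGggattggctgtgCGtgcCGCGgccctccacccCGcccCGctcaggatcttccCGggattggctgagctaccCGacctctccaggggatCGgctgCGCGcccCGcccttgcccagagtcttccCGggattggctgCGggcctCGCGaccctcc
LOC124904991: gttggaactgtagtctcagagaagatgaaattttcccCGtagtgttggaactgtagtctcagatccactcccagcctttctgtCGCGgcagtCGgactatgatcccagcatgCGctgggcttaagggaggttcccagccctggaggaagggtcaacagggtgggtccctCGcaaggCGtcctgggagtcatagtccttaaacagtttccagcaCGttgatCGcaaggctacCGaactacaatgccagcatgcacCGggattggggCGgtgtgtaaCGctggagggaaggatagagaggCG
MIR122HG: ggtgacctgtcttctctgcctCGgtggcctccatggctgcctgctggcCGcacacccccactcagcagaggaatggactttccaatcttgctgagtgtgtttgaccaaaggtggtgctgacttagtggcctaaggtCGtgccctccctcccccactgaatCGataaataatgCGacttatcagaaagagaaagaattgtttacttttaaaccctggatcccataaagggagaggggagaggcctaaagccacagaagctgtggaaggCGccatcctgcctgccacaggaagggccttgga

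MicroRNAs pair with target messages mainly through the seed, bases 2 to 8 of the mature RNA, set in capitals below as RefSeq gives the sequences. Shown are some of the microRNAs with a member. They are miR-132, miR-212 and let-7i, known from neurons or development, miR-148a and miR-210, and 1 that lies with the second highest member. The 3p arms of miR-132 and miR-212, which are induced by activity in neurons, came from a single member and share the seed AACAGUC, which no other mature microRNA of the table had. The let-7i seed is that of the let-7 family, which promotes differentiation.
miR-132-3p: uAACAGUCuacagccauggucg
miR-212-3p: uAACAGUCuccagucacggcc
let-7i-5p: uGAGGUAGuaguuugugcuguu
miR-148a-3p: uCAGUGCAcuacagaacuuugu
miR-210-3p: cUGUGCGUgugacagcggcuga
miR-4485-3p: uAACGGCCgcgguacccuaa

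The members were found in most libraries at a moderate deposited fold, the peak's enrichment over the caller's background. Of the 627, 276 (44.0%) had a peak in all 4 MYT1L libraries and 351 in 3, while 552 of the other intergenic regions (31.8%) had one in all 4. MYT1L library 1 had a peak in 94.9% of the members, library 2 in 66.2%, library 3 in 86.3% and library 4 in 96.7%. Library 2, which had the shortest list, therefore accounted for most of the missing calls. A library without a peak has no value at a region, since the lists hold only peaks above the authors' threshold.

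A library's fold at a region was that of its highest peak there. The mean fold of a member over its libraries ran from 1.65 to 11.5 with a median of 5.92. Within libraries 1 to 4 the median fold of members was 5.45, 5.65, 5.36 and 6.71, against 5.49, 5.65, 5.34 and 5.57 for the other intergenic regions. The differences were -0.048, -0.0029, 0.019 and 1.13. Only library 4 stood apart, and the mean difference of 0.275 ± 0.572 (SD, n = 4) was smaller than its own spread, with members higher in 2 of 4 libraries. These folds come from the peaks that chose the regions, so no test is given. Without library 4 the mean difference was 0.0034.

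Members had a median width of 711 bp (range 246 to 2718) against 578 bp for the other intergenic regions. They lay a median of 35.1 kb from the nearest protein-coding gene (quartiles 12.3 and 101 kb), against 72.6 kb. A distance over 100 kb was found for 158 members (25.2%) and for 45.1% of the other intergenic regions, and 62 members were within 5 kb. Regions just inside and just outside the rule had similar folds. The 20 members whose end lay in the last 100 bp allowed had a median mean fold of 5.66, and the 10 regions in the 100 bp beyond had 6.12. At the protein-coding limit, 2 members in the first 100 bp outside it had 5.07 and 3 regions in the 100 bp inside it had 4.74. The 351 members in 3 lists had 5.64, and 664 regions at noncoding ends with 2 lists and no IgG peak had 5.08.

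Pseudogenes annotated as transcribed carried members more often than other pseudogenes, and among RNA genes the small nuclear RNAs, tRNAs and 5S ribosomal RNAs stood above lncRNAs. Of 26669 noncoding genes and pseudogenes with an end that could qualify (outside protein-coding genes and over 1000 bp from them), 811 had a member, 3.04% called. The share was 16.2% for transcribed pseudogenes (175 of 1078, 95% Wilson interval 14.2 to 18.6) and 1.85% for other pseudogenes (190 of 10258, 1.61 to 2.13). It was 2.7% for lncRNAs (352 of 13013) and 2.33% for microRNAs (15 of 643), both near the overall share, and 1.26% for small nucleolar RNAs (7 of 554).

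Small nuclear RNA genes reached 12.4% (13 of 105, interval 7.38 to 20.04), tRNA genes 11% (38 of 347, interval 8.08 to 14.7) and ribosomal RNA genes 55.6% (15 of 27, interval 37.3 to 72.4). Genes of a type are not independent here, since many are neighbouring copies and 171 of the 627 members lay at ends of at least 2 genes. These intervals cover counting error only. The shares moved with the libraries used. Leaving out MYT1L library 2 or 3 (a peak in 2 of the 3 left then sufficed) gave 5.18 and 4.69% over all types, 4.77 and 4.20% for lncRNAs and 3.56 and 3.12% for other pseudogenes. It gave 18.7 and 20.7% for tRNA genes, while transcribed pseudogenes had 23.5 and 22.1%. Small nucleolar RNAs and microRNAs reached 1.99 and 3.73% without library 2. Stricter settings lowered the shares. With a peak required in all 4 libraries, tRNA genes had 4.32%, small nuclear RNAs 5.71% and transcribed pseudogenes 8.91%, beside 1.39% over all types. At a −log10 q of 5 or more these were 5.19, 7.62 and 10.6%, beside 1.70%. The ribosomal RNA share was 92.6% with IgG-overlapping regions kept and 33.3% with all rows of the gene table. By region, 317 members were at a lncRNA, 173 at a pseudogene, 159 at a transcribed pseudogene, 25 at a tRNA, 15 at a microRNA, 14 at a ribosomal RNA, 12 at a small nuclear RNA and 5 at a small nucleolar RNA gene, and a member could count under several types.

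**Figure D1:**
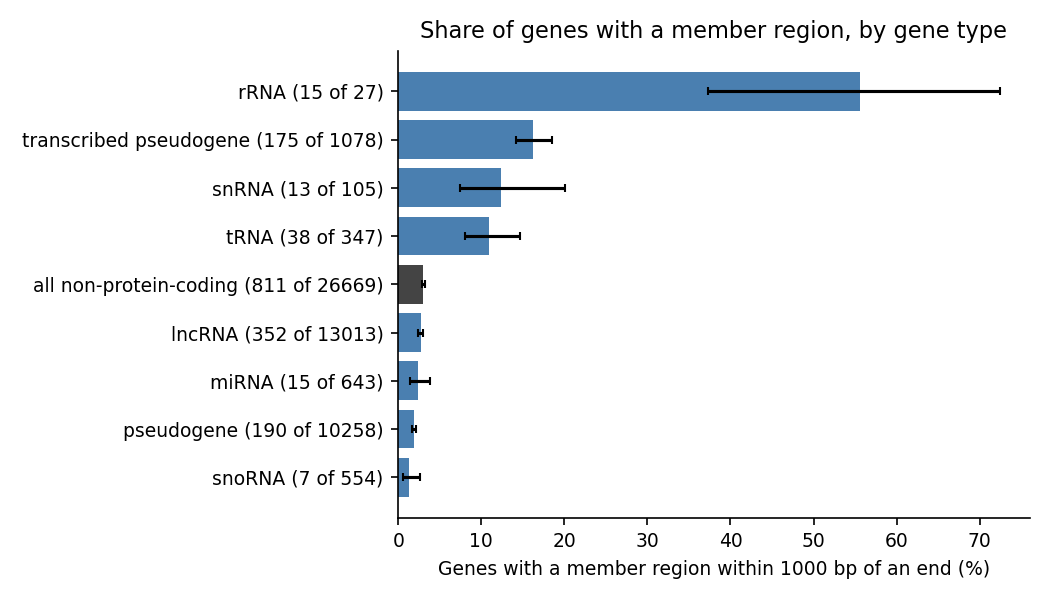
Share of eligible genes with a member within 1000 bp of an end (horizontal axis, percent), by RefSeq gene type for types with at least 25 eligible genes and more than 1 gene with a member. Bars start at 0, error bars are 95% Wilson intervals and the dark bar is the share over all types, 3.04%, above which rRNA, transcribed pseudogenes, snRNA and tRNA lie.

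The IgG filter removed these types unequally. Before it, 754 reproducible regions met the location rule, and 127 (16.8%) overlapped an IgG peak. It took 12 of 26 regions at ribosomal RNA genes, 11 of 26 at microRNAs and 62 of 235 at pseudogenes, but 23 of 182 at transcribed pseudogenes, 33 of 350 at lncRNAs and 0 of 25 at tRNA genes. Thus the tRNA members had no IgG counterpart among regions at their ends, while nearly as many 5S and other ribosomal RNA regions were set aside as were kept.

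Where the strand was known, members lay mostly at gene starts. RefSeq promoter windows gave the strand of 11461 of 18010 lncRNAs (63.6%), and 201 members had a nearest end that could be called a start or a stop. The nearest end was a start for 168 (83.6%, Wilson interval 77.8 to 88.1) and a stop for 33, and it had no known strand for 426. The 168 starts include 3 of microRNAs, MIR148A, MIR1915 and MIR132. Counting only members with a peak in the library, the start share was 81.7, 80.7, 83.6 and 83.6% in MYT1L libraries 1 to 4. These shares are over nearly the same regions, since a member needed a peak in 3 of the 4. The rule treated both ends alike. The share was 79.1% among members in all 4 libraries, 79.5% when ends up to 2000 bp away counted and 89.1% at 500 bp.

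Starts and stops of lncRNAs also differed as shares of the eligible positions. A member lay within 1000 bp of 227 of 6448 eligible lncRNA starts (3.52%) and of 51 of 7749 eligible stops (0.658%). Of the 52 members that reached a stop, 16 reached a start too. Over all single peaks at noncoding ends, reproducible or not, the start share was 77.6, 79.5, 83.3 and 85.0% in the MYT1L libraries. In the IgG libraries it was 68.8% (11 of 16, Wilson interval 44.4 to 85.8) and 73.3% (11 of 15, interval 48.0 to 89.1). These control intervals include the MYT1L values, so a difference in start share between antibody and control was not detectable at these peak numbers.

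Summit positions are described inside the window that the rule allows. Members had to lie within 1000 bp of an end, so short distances follow in part from the selection. Over all members the summit of the strongest peak lay a median of 277 bp from the nearest noncoding gene end (quartiles 126.5 and 585.5 bp), and 112 (17.9%) were within 100 bp. For the 165 members whose nearest end was a lncRNA start, the summit was a median of 32 bp downstream of it, with quartiles 215 bp upstream (-215) and 200 bp downstream. Upstream summits numbered 74, and 56 (33.9%) fell in the 300-bp promoter window. Of members at lncRNA starts, 22 of 205 joined starts on opposite strands. These include pairs whose genes overlap, such as LINC00623 and LOC100996720. The share of such pairs among all lncRNA starts is not given here, so nothing is read from this count. LINC00667 and LINC00526 started 71 bp apart on opposite strands within 1 member, as did LINC01144 and LOC105378691 with 164 bp between their starts.

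**Figure D2:**
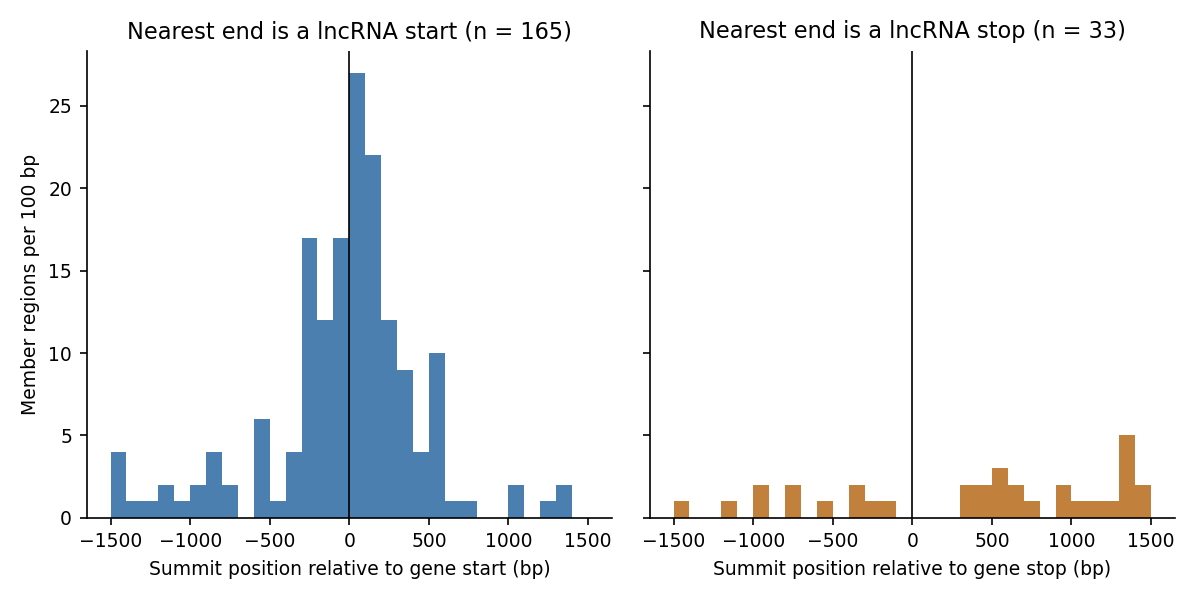
Position of the summit of the strongest peak relative to the nearest lncRNA start (left, n = 165) or stop (right, n = 33), in bp with downstream positive, as members per 100 bp, with summits beyond the axis drawn in the end bins. Members had to lie within 1000 bp of an end, so short distances follow in part from the selection. Summits at starts had a median 32 bp downstream, and stops, kept by the same rule, show no such pile.

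Promoters at member starts were rich in CpG, a property the rule did not use. A promoter window at the same start as the gene table was found for 214 of the 227 lncRNA starts with a member and for 5970 eligible starts without one, and the other starts were left out here. The 214 had a median GC content of 64.7% (quartiles 58.1 and 69.3), against 46.0% (39.7 and 53.7) for the 5970. The observed over expected CpG ratio had a median of 0.782 against 0.218. A ratio over 0.6, a usual mark of CpG islands, was found in 160 of 214 (74.8%) and in 611 of 5970 (10.2%), beside 26.0% of all lncRNA promoters and 62.1% of protein-coding promoters. LINC00667 (ratio 0.994), DANCR (0.798) and NORAD (0.779) were above that mark, SNHG33 (0.645) and LOC124904991 (0.614) just above it, and MIR122HG (0.274) below. These promoters share chromosomal neighbourhoods and gene families, so the shares are given without a test.

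**Figure D3:**
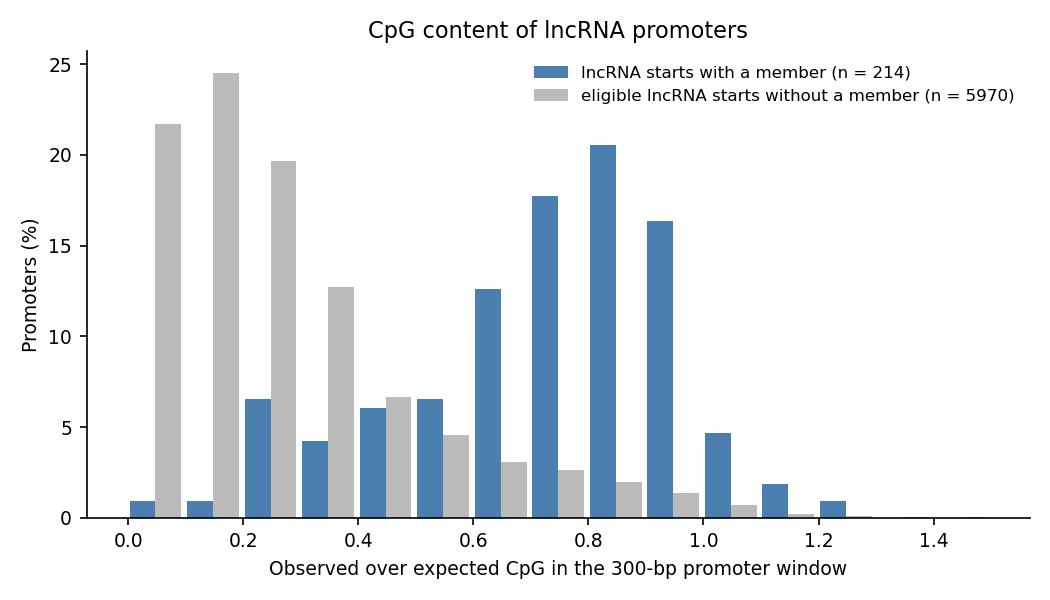
Distribution of the observed over expected CpG ratio (horizontal axis, bins of 0.1) in the 300-bp promoter windows of lncRNAs with a member at the start (blue, n = 214) and eligible lncRNAs without one (grey, n = 5970), as percent of each set. The first set has a median of 0.782 and the second of 0.218.

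The MYT1-family core was not more frequent there. AAGTT on either strand occurred in 47 of the 214 promoters (21.96%), in 45.4% of eligible lncRNA promoters without a member and in 34.0% of all promoters in the table. TATAAA was found in 3.74% against 19.03% (11.5% of all promoters). CCAATC, the CCAAT-box sequence whose other strand reads GATTGG, was found in 17.8% against 12.2% (15.1% of all). TGACTCA, an AP-1 site, was in 4.21% against 7.74% (4.95% of all). GGTTCGA, part of the B box inside tRNA genes, was in 2.80% against 0.452% (0.860% of all). Each motif was searched on both strands and none contains another. AAGTT and TATAAA are AT-rich, the 2 sets differed in GC content as given above, and the part of base composition in these shares was not tested. No match says only that the letters are not in these 300 bases, and most summits at lncRNA starts lay outside the window.

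Fold was similar in both CpG classes. In the 147 members with a promoter ratio over 0.6 the median fold was 5.50, 5.91, 5.85 and 8.05 in libraries 1 to 4, and in the 47 with a lower ratio it was 5.49, 6.10, 5.12 and 7.41. Members whose nearest end was a lncRNA start (n = 165) had medians of 5.44, 5.91, 5.56 and 7.47, and those at a stop 5.95, 5.76, 4.96 and 5.32. The higher values of library 4 thus occurred at starts of both CpG classes and not at stops, a difference that was not tested.

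Several of the strongest lncRNA members were copies of one another. LOC124904989, LOC124904990, LOC124904991 and LOC124904992 on chromosome 21 have promoters that are identical over all 300 bases, so that the sequence printed above for LOC124904991 stands for all 4. The member at LOC124904991 (chr21:7614163-7615160) had folds of 8.43, 8.48, 8.18 and 13.8 in libraries 1 to 4. LOC124904990 had 9.36, 10.2, 7.005 and 11.6, LOC124904989 had 9.71, 8.49, 7.43 and 11.8, and LOC124904992 had 8.33, 10, 5.80 and 13.5. All 4 had a peak in every library, and library 4 was the highest at each. How reads that fit several copies were placed is not given in the sources used here, so peaks at such copies cannot be assigned to 1 copy. Of the 214 promoters, 23 (10.7%) shared at least 50% of their 25-base words with another promoter, against 2.90% of those without a member.

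The highest lncRNA by the naming rule was LOC124906067, whose member (chr2:112346220-112347148) also reached the pseudogene LOC100418696. Its folds were 15.2, 8.87, 6.56 and 15.5, the highest mean of all members at 11.5 ± 4.49 (SD, n = 4). LINC00240, next to the transcribed pseudogene GUSBP2 (chr6:26956175-26957065), had 8.04, 8.75, 6.34 and 15.2. LINC00667 and LINC00526 (chr18:5237221-5238515) had 6.69, 9.07, 8.76 and 11.1. SNHG33, a small nucleolar RNA host (chr3:183447290-183447943), had 7.49, 5.91 and 14.1 in libraries 1, 2 and 4 and no peak in library 3. LINC00667 and SNHG33 were chosen after their values were seen.

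**Figure D4:**
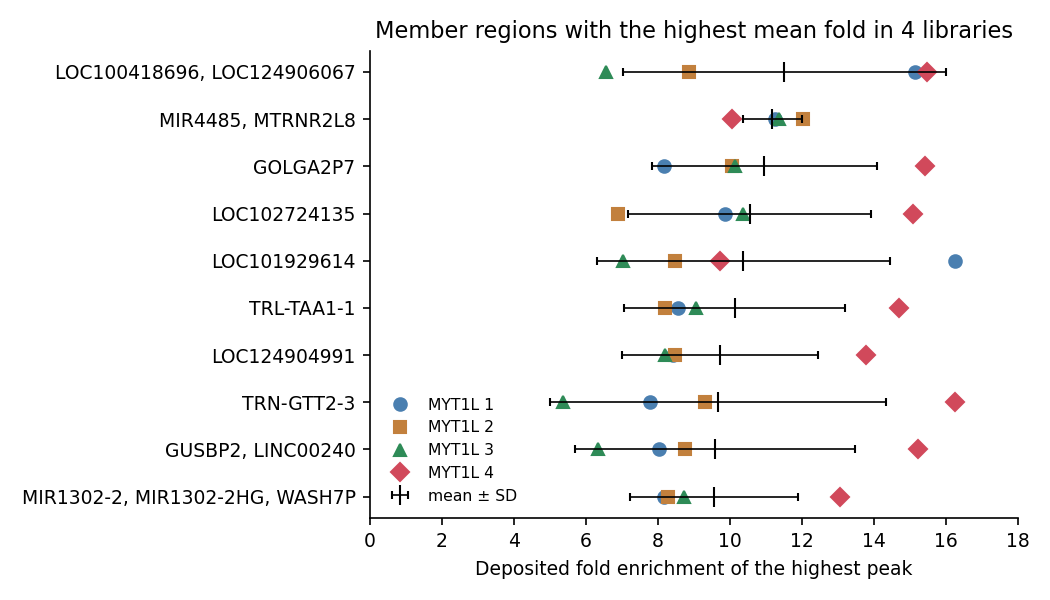
Deposited fold of the highest peak (horizontal axis) in each MYT1L library for the 10 members with the highest mean fold among those with a peak in all 4 libraries, with the mean ± SD in black. Library 4 (diamonds) is the highest at 8 of the 10, while MTRNR2L8 is even across libraries, between 10.1 and 12.0.

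Noncoding RNAs were also counted in lists by role. Of 25 eligible neural noncoding RNAs and hosts of neural microRNAs, such as RMST, MIAT and MEG3, 0 had a member. Since 3.04% of 25 genes is less than 1 gene, this list cannot be told from the background. MIR132 and MIR212 were not on it. Of the 27 found in the table, DLX2-DT and NKX2-1-AS1 had reproducible regions that lie at protein-coding genes and so were not members, 9 had regions in only 1 or 2 lists and 16 had none within 1000 bp of their ends. Pluripotency RNAs had 0 members of 6 eligible and RNAs of liver, muscle and HOX clusters 0 of 8. Broadly expressed lncRNAs and small nucleolar RNA hosts had 5 of 20 eligible, and small structural RNAs 7 of 23. These lists were drawn up with results of these data already known.

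The 5 broadly expressed lncRNAs had folds near or above the median of members. DANCR, which restrains differentiation (chr4:52712239-52712954), had 8.46, 6.52, 6.30 and 7.08, and its member also reached SNORA26 and MIR4449 in the same transcript. NORAD, which binds Pumilio proteins (chr20:36050417-36051121), had 4.63, 6.67 and 11.0 in libraries 2 to 4 and no peak in library 1. MALAT1, a nuclear speckle RNA (chr11:65497385-65497953), had 4.84, 8.03 and 7.15 in libraries 1, 2 and 4. SNHG12, host of SNORA16A and SNORA44, had 4.74, 7.17 and 8.99 in the same libraries, and SNHG29, host of SNORD49A and SNORD49B, had 5.72, 3.64 and 8.41 in libraries 2 to 4. Only DANCR of the 5 was called in all 4 libraries, and library 4 was the highest at NORAD, SNHG12 and SNHG29.

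The small structural RNAs with a member were mostly U1 genes, whose RNA recognises 5′ splice sites. RNU1-3 (chr1:16666922-16667408) had folds of 9.62, 9.53, 6.95 and 10.4, RNU1-4 had 8.49, 6.90, 7.52 and 10.9, and RNU1-2 had 4.07, 5.72, 5.31 and 5.95. RNU1-1 had 3.90, 6.05 and 5.05 in libraries 1, 2 and 4, and the variant U1 gene RNVU1-2A had 6.16, 6.92 and 12.2 in libraries 2 to 4. All 4 U1 genes of the list thus had a member. How reads that fit more than 1 of these genes were placed is not given in the sources used here, so the 4 calls need not be separate. RNU6-7 and RNU6-8, which make U6 RNA, shared a member with 4.80, 6.14 and 5.996, and RN7SL2, an RNA of the signal recognition particle, had 5.37, 7.22 and 8.68, both in libraries 1, 3 and 4.

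MicroRNA genes with a member numbered 16, of which 14 had a mature sequence in the table. MIRLET7I (chr12:62602466-62603800, with its host MIRLET7IHG and LINC01465) had folds of 8.16, 7.52, 6.20 and 8.92 and was called in every library. The member of MIR132 and MIR212 (chr17:2049727-2051124) had 3.70, 4.38 and 6.09 in libraries 1, 3 and 4. MIR210, known from hypoxia, had 3.10, 4.95 and 6.10 and MIR148A 5.03, 4.88 and 4.75 in those libraries, so these 3 regions were among the weaker ones and lacked a peak in library 2. MIR3180-1, MIR3180-2 and MIR3180-3, copies on chromosome 16 that share the 5p arm miR-3180-5p, had mean folds of 6.37, 7.55 and 6.23 and were called in all 4 libraries.

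Genes with a member were found for 11 amino acids in the tRNA gene names, unevenly. Over all eligible tRNA genes the share was 11% (38 of 347). Of eligible genes, 8 of 11 had a member for glutamate, 6 of 20 for glycine, 6 of 29 for leucine, 5 of 19 for asparagine, 4 of 12 for aspartate and 3 of 19 for threonine. Isoleucine had 2 of 18, near the share over all tRNA genes, and histidine, lysine, proline and glutamine had 1 each. There were 0 of 28 for alanine, 0 of 25 for cysteine, 0 of 24 for valine, 0 of 19 for serine and 0 of 14 for arginine. Much of this followed 1 array on chromosome 1, where tandem copies of leucine, glycine, glutamate and aspartate genes held 8 of the 25 tRNA members (chr1:161422530-161472175). Their median mean fold was 3.36 (range 2.38 to 6.30), against 6.99 (3.93 to 10.1) for the 17 elsewhere.

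Among those elsewhere were some of the strongest members. TRL-TAA1-1, a leucine tRNA gene (chr6:144215891-144216534), had folds of 8.57, 8.18, 9.06 and 14.7. TRN-GTT2-3, an asparagine tRNA gene (chr10:22229138-22229568), had 7.78, 9.30, 5.36 and 16.3, and TRN-GTT2-7 had 7.86, 5.67 and 11.2 in libraries 1, 3 and 4. Library 4 was again the highest at each of these genes.

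The 5S ribosomal RNA genes formed the densest group and the weakest by fold. In their tandem array on chromosome 1, 13 members lay side by side (chr1:228610395-228643371) at RNA5S1 to RNA5S16 copies. The 14 ribosomal RNA members had a median mean fold of 2.32 (range 1.91 to 2.90), and their medians were 2.23, 2.43, 2.45 and 2.24 in libraries 1 to 4. The highest, at RNA5S6 and RNA5S7, had 3.10, 2.66, 2.96 and 2.89. The median deposited −log10 q of these members was 10.8, 6.50, 6.69 and 7.38, compared with 6.84, 5.24, 6.12 and 11.1 over all members, so their low folds were not matched by low values on that scale in libraries 1 to 3. Unlike most other types, they were not higher in library 4.

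**Figure D5:**
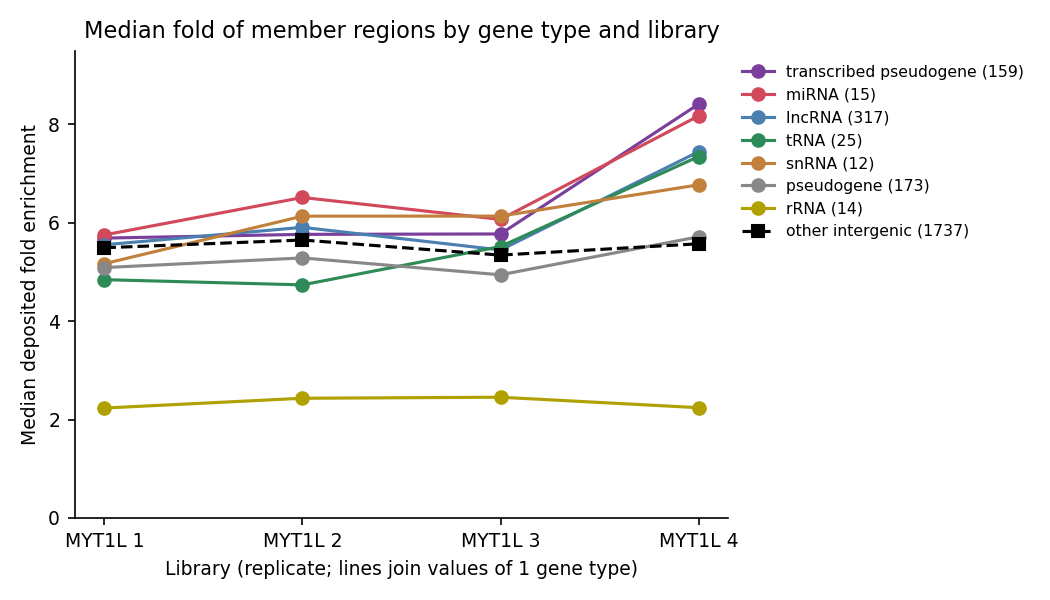
Median deposited fold of members (vertical axis, from 0) in MYT1L libraries 1 to 4 by gene type, with the number of members in brackets, and the other intergenic reproducible regions as black squares. Transcribed pseudogenes, microRNAs, lncRNAs and tRNAs are higher in library 4, ribosomal RNA genes stay between 2.23 and 2.45 in all 4 libraries.

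Transcribed pseudogenes differed from other pseudogenes in strength as well as frequency. Their 159 members had medians of 5.69, 5.77, 5.77 and 8.41 in libraries 1 to 4, and 86 (54.1%) had a peak in all 4. The 173 members at other pseudogenes had 5.09, 5.29, 4.94 and 5.72, and 66 (38.2%) had a peak in all 4. The transcribed class was thus higher in each of the 4 libraries, by the most in library 4. Fold did not choose between the types, but the same libraries chose all members, and some regions counted under both, so no test is given.

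Some members belonged to families of duplicated genes. Copies of GUSB, which encodes a lysosomal glucuronidase, had a member at 7 of 12 genes, and copies of the mismatch repair gene PMS2 at 6 of 7, beside the 16.2% of all eligible transcribed pseudogenes. These were the families with the most members and were named after their counts were seen, so nothing is read from the counts. Other families were near the 16.2%, such as the symbols beginning ZNF with 4 of 26 and GOLGA with 2 of 14. PMS2P1 (chr7:100335568-100336404) had folds of 8.54, 6.39, 6.33 and 12.0, PMS2P7 had 7.29, 4.81, 9.40 and 10.03, and GUSBP15 had 8.24, 9.72, 4.39 and 13.9. At 5 of the 6 PMS2P genes the member also reached a copy of STAG3, a cohesin gene, and library 4 was the highest at the 3 genes just given.

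GOLGA2P7, a copy of the gene for a golgin of the Golgi apparatus (chr15:84229338-84230313), had 8.17, 10.1, 10.2 and 15.4. LOC102724135, on the same chromosome (chr15:84443257-84444244), had 9.86, 6.89, 10.4 and 15.1, and EGFEM1P had 10.1, 6.83 and 13.5 in libraries 1, 3 and 4. WASH7P (chr1:28975-29843), which shares its member with MIR1302-2 and MIR1302-2HG, had 8.16, 8.29, 8.72 and 13.1. These were strongest in library 4, but 2 of the highest members were not. LOC107984030, a pseudogene (chr22:11829070-11830085), had 8.59, 9.02, 10.9 and 9.43, and LOC101929614, of the RefSeq class for other RNAs (chr6:170146012-170146418), had 16.2, 8.48, 7.03 and 9.72. Over all chromosomes, 627 members stood beside 1737 other intergenic regions. Chromosome 15 held 43 beside 47, chromosome 16 held 32 beside 49, chromosome 1 held 83 beside 226 and chromosome Y held 5 beside 60. Only some chromosomes are given here, so nothing is read from these counts.

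Nuclear copies of mitochondrial genes were a further group. MTRNR2L8, a nuclear copy related to mitochondrial ribosomal RNA (chr11:10509221-10509730, with MIR4485), had folds of 11.3, 12.0, 11.4 and 10.1. It was the second highest member by mean, 11.2, and library 4 was the lowest there. A pair of members on chromosome 1 (chr1:629662-634154) lay at a block of mitochondrial copies that includes MTND1P23, MTND2P28 and MTATP6P1. Their mean folds were 3.70 and 7.72. How reads that fit both the mitochondrial genome and these copies were placed is not given in the sources used here. Peaks at these members therefore cannot be assigned to the nuclear copies. Subtelomeric DUX4-like copies DUX4L1, DUX4L2 and DUX4L3 on chromosome 4 held 4 members with mean folds from 1.87 to 3.39.

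Close clusters were few. Members within 10 kb of each other formed 16 clusters with 55 members, 7 of them with at least 3. Besides the 5S and tRNA arrays and the DUX4-like copies these included MALAT1, ENEMAL and LINC02736 on chromosome 11, with mean folds of 4.98 to 6.68. The largest clusters were thus tandem gene arrays, in which neighbouring members share sequence.

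Set beside the controls, the share of peaks at noncoding ends was not higher with the MYT1L antibody. Of all peaks, 6.14, 6.37, 6.05 and 6.14% had a summit outside protein-coding genes and within 1000 bp of a noncoding end in MYT1L libraries 1 to 4, and 9.43 and 9.52% in the IgG libraries. The MYT1L mean was 6.18 ± 0.136% (SD, n = 4). With a mean of 9.47 ± 0.0656% (SD, n = 2) in IgG, MYT1L minus IgG came to -3.30 points. The groups did not overlap, and the exact permutation test gave a two-sided p of 0.133, counted as double the smaller tail over 15 splits, the smallest p this count allows for 4 against 2 libraries.

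The direction depended on the denominator. As a share of intergenic peaks alone the values were 16.1, 20.4, 17.7 and 19.2% for MYT1L and 12.8 and 17.4% for IgG, a difference of 3.26 points the other way (exact permutation p = 0.267), with overlapping groups. The IgG lists were the shorter ones, and the part of list length in these shares was not tested.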

How the data were processed

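Peaks were called with MACS2 on hg38, per the submitters' processing notes. The aligner, the threshold, the control and the handling of reads from repeated sequence are not given in the sources used here. Each deposited list holds, for every peak, the authors' score, fold (a ratio over background), −log10 p and −log10 q and the summit's offset; the authors' values served only to describe and rank peaks. Peak names in the MYT1L lists carry sample numbers 1 higher than the sample titles, and the titles were followed.

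Regions on chromosomes 1 to 22, X and Y were merged in Python 3.11.15 (pandas 2.3.3), and bedtools 2.31.1 gave the same 627 members. Gene ends and types came from RefSeq (GRCh38.p14, 58957 rows). A further 718 rows, whose coordinates are those of unplaced or alternate sequences, were left out. The table has no strand, so starts were taken from the promoter and microRNA tables. The code was checked on simulated peaks. Libraries were compared by exact permutation (NumPy 2.4.6), and shares have 95% Wilson intervals. Named were the 10 members with the highest mean fold in all 4 libraries, the 3 genes with the highest mean fold of each type with at least 3 members, and genes of the lists. The members and lists were chosen with earlier results of these data known. The alternatives changed the q threshold, library support, peak joining, the IgG rule, the gene-end distance, the gene table and the libraries used. P-values measure only the spread between these libraries, which may be technical.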

Additional observations from a re-analysis of the deposited data

Results flagged for a closer look

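In 24 sets of 4 MYT1L values, the highest or lowest library was compared with the other 3 by Dixon's test, and 4 sets had a library beyond the 95% critical value. Chance alone marks about 1 set in 20 only where sets are not chosen by their values. Most sets here were folds of members named for a high mean fold. A high value in 1 library raises that mean, so this rate does not hold for them. Library 4 was beyond the critical value in each of the 4 flagged sets. The median fold of members minus that of other intergenic regions was 1.13 there and between -0.048 and 0.019 in the other 3. The fold of the member at the leucine tRNA gene TRL-TAA1-1 was 14.7 against 8.18 to 9.06, that at the lncRNA LOC124904991 was 13.8 against 8.18 to 8.48, and that at WASH7P, MIR1302-2 and MIR1302-2HG was 13.1 against 8.16 to 8.72. These sets share the same 4 libraries, so they are not independent of each other.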

How the results depend on the processing

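There were 332 members at a stricter −log10 q (5 or more), 276 with all 4 libraries required, 1291 with at least 2, and 372 with pseudogenes left out. Leaving out 1 MYT1L library (of 3 left, 2 had to have a peak) gave 781 to 1153 members, with 1153 without library 2 and 1033 without library 3. Leaving out IgG library 1 or 2, with MYT1L support unchanged, gave 665 and 658. The ranges below with 1 library left out cover both antibodies. The member share of intergenic regions was 33.3% with all 4 libraries, 23.7% with at least 2, 24.7% with IgG-overlapping regions kept, 22.9% and 30.5% at gene-end distances of 500 and 2000 bp, and 23.3 to 26.7% with 1 library left out. In the same order of settings the median summit distance was 252, 314, 310.5, 221 and 357 bp, and 284 to 315 bp with 1 library left out. It was 244 bp at the stricter q and 240 bp with peaks joined only by summits within 200 bp. The share of eligible genes with a member was 1.39, 5.71, 3.55, 2.59 and 3.54% in that order, 1.70% at the stricter q, 2.32% by summits, and 3.20 to 5.18% with 1 library left out, the highest being without library 2. The start share was 89.1% at 500 bp, 79.5% at 2000 bp, 79.1% with all 4 libraries, 87.96% at the stricter q, 82.4 to 84.7% with 1 library left out, and 82.2% without near-identical promoters, an alternative added after seeing the data. With every row of the gene table, also added later, there were 624 members.

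The fold difference turned to -0.034 with IgG-overlapping regions kept, and was 0.0034 to 0.315 with 1 library left out. The difference in library share turned to 3.26 points over intergenic peaks, and was -3.36 to -3.25 points with 1 library left out. With a replicate block over the 2 numbers both groups have it was -3.22 points (exact p = 0.5). The labels do not say whether same-numbered libraries were paired. Deviations of their peak shares from the group means over 24 chromosomes correlated at -0.140 and -0.086. With 2 IgG libraries the deviations of 1 mirror those of the other, so these values cannot decide whether the libraries were paired. The cause of the 2 reversals was not tested. Depth is unknown, so a missing peak cannot be read as absence.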
